A study of Mus musculus with 23 samples.

Results

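Retinoic acid receptors and the genes that take up, make, bind and degrade retinoic acid were followed through mouse male germ cell development. The 10 genes were given as a list (Rara, Rarb, Rarg, Rxra, Rxrb, Aldh1a1, Aldh1a2, Cyp26b1, Crabp1 and Stra6) out of 18193 genes with a probe set of their own, and the rule names genes and sets no threshold on their values. Each gene was read by whichever of its probe sets was brightest on average in wild type, and a gene below a log2 value of 4 on all 23 arrays was taken as not measured, which left 8 measured genes and set aside Rarb and Stra6. RNA came from testis cells stained with the DNA dye Hoechst 33342 and sorted by flow cytometry, and was hybridised to 1-colour Affymetrix arrays. Spo11-/- cells were represented by 3 arrays, 1 each of spermatogonia, pre-leptotene and leptotene/zygotene spermatocytes, from males aged 10 to 16 weeks whose strain the labels do not give. Their cells were pooled from 2 collections, and whether the fractions share mice is not stated. The 20 wild-type arrays came from C57BL6xDBA2J F1 males aged 10 to 16 weeks. They held spermatogonia (4 arrays), pre-leptotene (3), leptotene/zygotene (3), early pachytene (1), mid-pachytene (2), late pachytene (1) and diplotene (2) cells, and round spermatids (4), labelled as biological replicates.

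Retinoic acid is made from vitamin A. Stra6 takes retinol up from its carrier in blood, retinol is oxidised to retinal, and the retinal dehydrogenases Aldh1a1 and Aldh1a2 oxidise retinal to retinoic acid. Crabp1 binds retinoic acid in the cytosol and Cyp26b1 is a cytochrome P450 that degrades it. The receptors Rara, Rarb and Rarg bind DNA as partners of the retinoid X receptors Rxra and Rxrb and switch genes on when retinoic acid is bound. In the testis of mice, retinoic acid drives the differentiation of spermatogonia and the entry into meiosis, which Stra8 marks, and Cyp26b1 in the fetal testis keeps germ cells out of meiosis. Sertoli cells and late spermatocytes are known sources of retinoic acid in the adult mouse testis.

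The values are log2(intensity + 1) throughout, with levels given as mean ± SD over arrays and changes as fitted log2 change ± SE. Median intensity per array lay between 10.6 and 12.6, and 44.2% to 47.3% of probe sets reached a log2 value of 4. The probe set of Spo11, the enzyme of meiotic double-strand breaks, read 4.30, 4.80 and 5.21 on the Spo11-/- spermatogonia, pre-leptotene and leptotene/zygotene arrays. The wild-type arrays of these fractions read 4.60 to 6.69, 4.61 to 7.03 and 7.42 to 8.95. Which part of the gene is deleted and which part the probe set reads were not given, so this checks the labels only in part. Of 8 spermatid markers 1 or 2 reached a log2 value of 4 on each Spo11-/- array, whereas all 8 did so on every wild-type array, spermatogonia included. Their summed level was log2 15.34 to 17.26 in wild-type spermatogonia and 16.43 to 16.92 in round spermatids. Their median was 10.3 to 13.5 and 13.1 to 13.9. The part of spermatid RNA in the spermatogonia values, against which round spermatids are compared below, was not tested. The Spo11-/- pre-leptotene array stood apart with all 6 T cell markers at or above 4. It also had all 12 macrophage and leukocyte markers at or above 4, as had wild-type spermatogonia arrays 1 and 4. Among wild-type spermatogonia, array 4 stood apart with a summed peritubular and stromal marker level of log2 14.06, against 10.20 to 11.93 on arrays 1, 2 and 3.

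Within the wild-type fractions the retinoic acid genes moved in opposite directions. Crabp1 and the receptor genes Rarg, Rxra and Rxrb were lower in round spermatids than in spermatogonia, by log2 values between -7.11 and -1.84, while the synthesis gene Aldh1a2 was higher by 2.11. Of the 8 measured genes, 6 differed between the 8 wild-type fractions at an adjusted p below 0.05 in limma's F test, where 80.4% of all 13087 genes tested did. Rara and Aldh1a1 did not pass (adjusted p = 0.575 and 0.343). In a bulk sample of sorted cells, fewer cells of a type and less RNA per cell cannot be told apart. All 8 measured genes passed the filter on low values (log2 of at least 4 on at least 2 arrays).

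**Figure D1:**
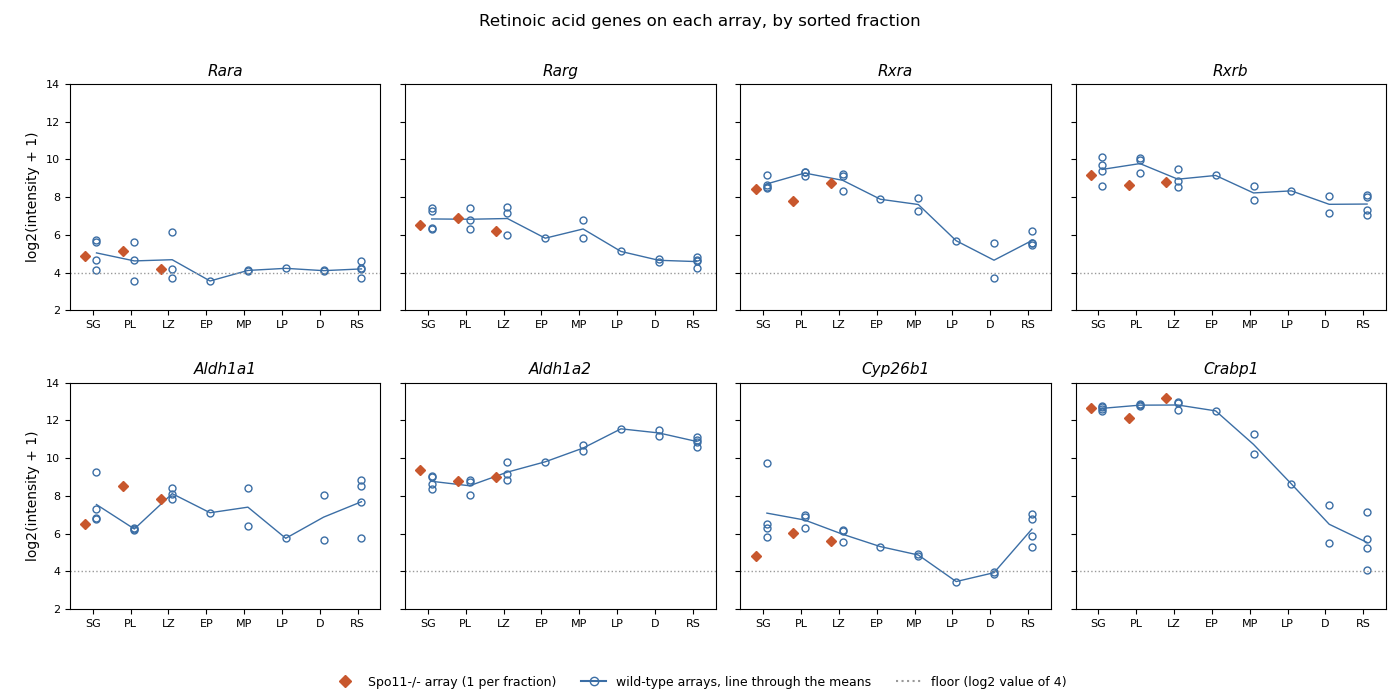
Levels of the 8 measured genes, as log2(intensity + 1), on each array by sorted fraction (SG spermatogonia, PL pre-leptotene, LZ leptotene/zygotene, EP early, MP mid and LP late pachytene, D diplotene, RS round spermatids). Filled diamonds are Spo11-/- arrays and open circles are wild-type arrays, with a line through the wild-type means. Crabp1 stays between 12.49 and 12.96 on all wild-type arrays up to early pachytene and lies at 4.04 to 7.15 in round spermatids, while Aldh1a2 lies between 8.03 and 9.78 up to leptotene/zygotene and between 10.58 and 11.55 on the late pachytene, diplotene and round spermatid arrays.

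A gene was called changed at an adjusted p below 0.05 over all genes tested and a log2 change of at least 1, in limma over the 20 wild-type arrays. Between pre-leptotene spermatocytes and spermatogonia 0 of 8 genes were called (0 at an unadjusted p below 0.05). Over all genes 0.0611% were called higher and 1.64% lower, and the median change was -0.13 over the 8 genes and -0.01 over all genes tested. Between leptotene/zygotene and pre-leptotene spermatocytes 0 of 8 were called, with 3.03% of all genes called higher and 0.0764% lower. Here 2 genes had an unadjusted p below 0.05, Aldh1a1 (1.87 ± 0.81, adjusted p = 0.335) and Aldh1a2 (0.72 ± 0.29, adjusted p = 0.271). Spermatogonia and early meiosis markers lay close together in these fractions, whereas markers of later stages differed more. The median of 8 spermatogonia markers per array was 8.5 to 10.8 in spermatogonia, 9.0 to 10.6 in pre-leptotene and 10.2 to 10.5 in leptotene/zygotene cells. That of 6 early meiosis markers was 10.3 to 10.6, 10.8 to 10.9 and 11.1 to 11.8. The median of 8 late prophase markers was 7.6 to 9.2, 7.6 to 9.5 and 9.9 to 11.4 in the same order. For 8 spermatid markers it was 10.3 to 13.5, 8.8 to 9.9 and 10.0 to 10.5. How far the fractions share cells of 1 stage was not tested.

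The calls lay in later steps. Between mid-pachytene and leptotene/zygotene spermatocytes 1 of 8 genes rose and 2 fell, where 14.2% of all genes rose and 15.2% fell, with a median change of -0.72 over the 8 genes and -0.07 over all. Between diplotene and mid-pachytene 0 rose and 3 fell, where 6.98% of all genes rose and 14.5% fell, with medians of -0.77 and -0.01. Between round spermatids and diplotene 1 rose and 0 fell, where 12.5% of all genes rose and 12.0% fell, with medians of 0.05 and -0.01. Counted from spermatogonia, 1 gene rose and 4 fell by mid-pachytene (17.5% and 19.2% of all genes; medians -1.01 and -0.14). By round spermatids 1 rose and 4 fell as well (30.2% and 35.3% of all genes; medians -1.34 and -0.16). These comparisons share fractions with each other. Quantile normalization changed the balance of all calls in some of them, with 11 genes higher and 17 lower between pre-leptotene and spermatogonia (8 and 215 as deposited) and 1221 higher and 1571 lower between diplotene and mid-pachytene (913 and 1899 as deposited).

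**Figure D2:**
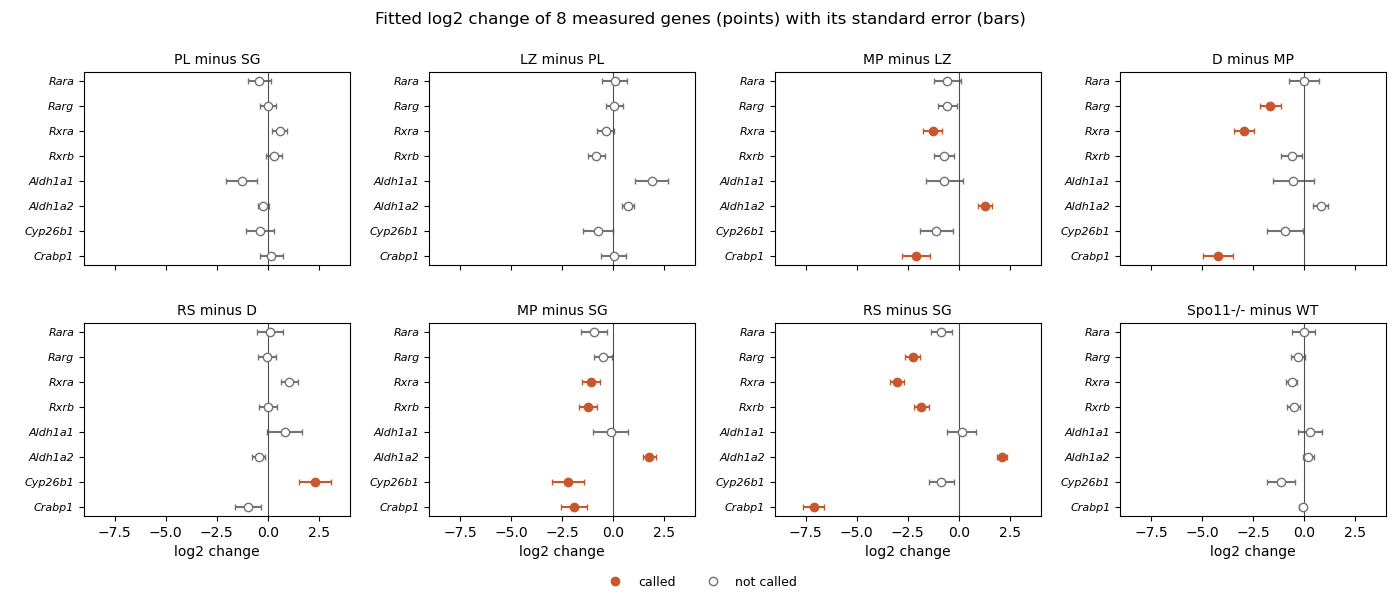
Fitted log2 change of each of the 8 measured genes in the 7 comparisons of wild-type fractions and in Spo11-/- against wild-type arrays (points), with its standard error (bars). The fraction or genotype named first in each panel title is the one above the other in the difference, and filled points are called (adjusted p below 0.05 and a change of at least 1). No point is filled in the PL minus SG, LZ minus PL and Spo11-/- minus WT panels, and Crabp1 reaches -7.11 in the RS minus SG panel.

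The sequences just before the annotated starts of 3 genes are shown. They are Crabp1, whose level fell most among these genes, Aldh1a2, which rose, and Rarb. Like Stra6, Rarb was not measured on any array, but its window alone among the 10 genes held a repeat of the kind described below. The sequences are the 250 bases before the start in the RefSeq annotation of GRCm38.p6, read along the strand of the gene, with motif matches in capitals.
Rarb, chr14:16575477-16575726, minus strand: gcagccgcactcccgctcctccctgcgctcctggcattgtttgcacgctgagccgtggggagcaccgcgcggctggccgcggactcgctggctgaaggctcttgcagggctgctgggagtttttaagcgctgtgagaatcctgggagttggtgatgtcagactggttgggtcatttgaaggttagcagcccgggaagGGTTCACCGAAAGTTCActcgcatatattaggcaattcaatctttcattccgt
Crabp1, chr9:54764498-54764747, plus strand: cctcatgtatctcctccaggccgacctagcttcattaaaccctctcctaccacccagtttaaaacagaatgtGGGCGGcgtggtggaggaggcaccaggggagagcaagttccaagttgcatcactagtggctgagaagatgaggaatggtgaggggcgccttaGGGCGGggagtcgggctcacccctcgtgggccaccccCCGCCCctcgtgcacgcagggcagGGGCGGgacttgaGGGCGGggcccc
Aldh1a2, chr9:71215539-71215788, plus strand: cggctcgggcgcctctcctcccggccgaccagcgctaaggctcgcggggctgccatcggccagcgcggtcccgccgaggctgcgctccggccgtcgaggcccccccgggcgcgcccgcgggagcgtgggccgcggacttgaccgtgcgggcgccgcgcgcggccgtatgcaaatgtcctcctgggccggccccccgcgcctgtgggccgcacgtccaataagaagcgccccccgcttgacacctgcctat
The windows of all 10 genes (20 windows, several genes having more than 1 start) were searched on both strands for direct repeats of the receptor-binding hexamers AGGTCA or AGTTCA or GGGTCA or GGTTCA with 5, 2 or 1 bases between, the arrangements to which retinoic acid receptors are known to bind, and for GGGCGG and TATAAA. The Rarb window held a repeat with 5 bases between, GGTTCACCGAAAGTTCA, 53 bases before the start, and no other window of the 10 genes held a repeat of any of the 3 spacings. Over all 32851 windows of the annotation, 0.0883% held one with 5 bases between, 0.174% one with 2 and 0.164% one with 1. The Crabp1 window held 5 copies of GGGCGG on either strand and the Aldh1a2 window held 0, and 32.7% of all windows held at least 1. Rara, which was not called in any comparison, had 4 copies in each of 2 windows. Rarg and Rxra, which fell, each had a window with 3 copies and a window with 0. Rxrb, which also fell, had windows with 2 and 3 copies, and the Cyp26b1 window had 3. The Cyp26b1 window also held TATAAA, 139 bases before the start, as no other window of the 10 genes did. Over all windows of the annotation 12.4% held it. A match describes these letters only.

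Of the synthesis genes, Aldh1a2 (chromosome 9, 71215789 to 71296243) was the one whose level rose. In wild-type spermatogonia its probe set read 8.65, 8.35, 9.03 and 9.06, in pre-leptotene cells 8.75, 8.03 and 8.82, and in leptotene/zygotene cells 8.86, 9.14 and 9.78. It then read 9.81 in early pachytene, 10.67 and 10.40 in mid-pachytene, 11.55 in late pachytene, 11.50 and 11.17 in diplotene, and 10.58, 10.88, 10.99 and 11.09 in round spermatids. All arrays from mid-pachytene on lay above all arrays up to early pachytene. The level was 10.53 ± 0.19 in mid-pachytene (n = 2) and 9.26 ± 0.47 in leptotene/zygotene cells (n = 3), a rise of 1.28 ± 0.33 (adjusted p = 0.00832). Against the 8.77 ± 0.34 of spermatogonia (n = 4), mid-pachytene cells were higher by 1.76 ± 0.31 (adjusted p = 0.000319) and round spermatids, at 10.88 ± 0.22 (n = 4), by 2.11 ± 0.25 (adjusted p = 1.21e-06). Ordered by mean level, the fractions ran late pachytene, diplotene, round spermatid, mid-pachytene, early pachytene, leptotene/zygotene, spermatogonia and pre-leptotene, and arrays of neighbouring fractions overlapped for round spermatids and mid-pachytene and between the leptotene/zygotene, spermatogonia and pre-leptotene fractions. Without mid-pachytene array 1 the step from leptotene/zygotene was not called (1.14 ± 0.42, adjusted p = 0.0546). The other 2 changes were called under every alternative tried.

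Aldh1a1 (chromosome 19, 20492583 to 20643463), the other retinal dehydrogenase, varied widely between arrays of the same fraction. It read 7.30, 6.75, 6.84 and 9.27 in spermatogonia, 6.21, 6.29 and 6.24 in pre-leptotene and 8.43, 7.81 and 8.11 in leptotene/zygotene cells. Later it read 7.10 in early pachytene, 8.42 and 6.38 in mid-pachytene, 5.75 in late pachytene, 8.06 and 5.68 in diplotene, and 8.82, 7.65, 5.75 and 8.54 in round spermatids. The 3 pre-leptotene arrays lay below all leptotene/zygotene and spermatogonia arrays, but neither difference was called (1.87 ± 0.81 for leptotene/zygotene against pre-leptotene, and -1.29 ± 0.76, adjusted p = 0.686, for pre-leptotene against spermatogonia). Markers of other testis cells moved beside it on some arrays but not on others. Of 8 Leydig cell markers listed, 5 were on the array, 0 to 4 of them reached a log2 value of 4 per array, and Hsd17b3 stayed below 4 on all arrays. Their summed level in spermatogonia was highest on array 4 (7.76, against 6.28 to 6.72 on the others). In round spermatids it was lowest on array 3 (6.30, against 7.76 to 8.30), the array where Aldh1a1 was also lowest. In pre-leptotene cells it was 5.47 to 6.95 and in leptotene/zygotene cells 7.84 to 8.17. Of 12 Sertoli cell markers listed, 11 were on the array and 2 to 6 of them reached 4 per array, while Amh, Fshr and Gata1 stayed below 4 on all arrays. Their summed level was higher on the array with the higher Aldh1a1 value in mid-pachytene (12.82 on array 1 and 11.53 on array 2) and in diplotene (12.54 on array 1 and 10.43 on array 2), and was 9.99 in late pachytene. Clu alone made up most of it, reading 12.6 and 11.2 in mid-pachytene and 12.3 and 10.1 in diplotene. The median of the 11 markers was 3.88 and 3.54 in mid-pachytene and 4.34 and 3.73 in diplotene. In round spermatids the Sertoli sum was 12.76, 11.78, 10.30 and 9.06, lowest on array 4, where Aldh1a1 read 8.54. In spermatogonia it was 11.70, 11.93, 11.25 and 11.44, and array 4, with Aldh1a1 at 9.27, was not the highest. It was 11.1 to 12.4 in pre-leptotene, 12.3 to 12.8 in leptotene/zygotene and 12.82 in early pachytene cells. The Leydig sum was 7.15 in early pachytene, 7.87 and 7.10 in mid-pachytene, 5.52 in late pachytene and 6.95 and 6.59 in diplotene. The part of Leydig and Sertoli cells in the Aldh1a1 values was not tested.

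Stra6 (chromosome 9, 58063793 to 58154004), the retinol receptor, was not measured. Its highest value, 3.9999 on diplotene array 1, lay just under the threshold of 4, and its lowest was 3.07. Among the measured genes the one with the lowest maximum was Rara, at 6.16.

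Crabp1 (chromosome 9, 54764748 to 54773110), which binds retinoic acid in the cytosol, had the largest change of the 8 genes. It was high and uniform at first, reading 12.73, 12.49, 12.59 and 12.74 in spermatogonia, 12.79, 12.79 and 12.85 in pre-leptotene cells, 12.96, 12.55 and 12.94 in leptotene/zygotene cells and 12.51 in early pachytene. Its mean was lower in each later fraction, with 11.26 and 10.19 in mid-pachytene, 8.63 in late pachytene, 7.51 and 5.48 in diplotene, and 7.15, 5.22, 5.71 and 4.04 in round spermatids. Arrays of mid-pachytene, late pachytene and diplotene did not overlap each other or any earlier fraction, whereas diplotene and round spermatid arrays overlapped. Mid-pachytene cells were lower than leptotene/zygotene cells by a log2 change of -2.09 ± 0.67 (10.73 ± 0.76, n = 2, against 12.82 ± 0.23, n = 3, adjusted p = 0.0251). Diplotene cells were lower again, at 6.49 ± 1.44 (n = 2), by -4.24 ± 0.73 (adjusted p = 0.000751). Round spermatids, at 5.53 ± 1.29 (n = 4), lay -7.11 ± 0.52 below spermatogonia, at 12.64 ± 0.12 (n = 4, adjusted p = 4.75e-09), and mid-pachytene cells -1.91 ± 0.63 below them (adjusted p = 0.0231). The first step was not called without leptotene/zygotene array 1 (-2.02, adjusted p = 0.0634), leptotene/zygotene array 3 (-2.03, adjusted p = 0.0542) or mid-pachytene array 2 (-1.56). The change from spermatogonia to mid-pachytene was not called without mid-pachytene array 2 (-1.38) or without spermatogonia arrays 1 and 2 together.

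Cyp26b1 (chromosome 6, 84571414 to 84593908), which degrades retinoic acid, was low in the middle of the series and higher at both ends. It read 6.28, 6.49, 5.84 and 9.73 in spermatogonia, 6.89, 6.29 and 6.97 in pre-leptotene, 6.20, 5.55 and 6.15 in leptotene/zygotene cells and 5.31 in early pachytene. It read 4.83 and 4.90 in mid-pachytene, 3.45 in late pachytene, 3.87 and 3.98 in diplotene, and 5.88, 6.75, 5.29 and 7.02 in round spermatids. The late pachytene and diplotene arrays were all below the threshold of 4, and every round spermatid array was above them. Since both diplotene arrays were below 4, the rise in round spermatids (6.24 ± 0.79, n = 4) is a bound, at least 2.24 on the log2 scale or at least 4.71-fold (fitted change 2.31 ± 0.77, adjusted p = 0.0358). The call was lost without diplotene array 1 (2.26, adjusted p = 0.174) or 2 (2.36, adjusted p = 0.120) and without round spermatid array 2 (2.14, adjusted p = 0.0772) or 4 (2.05, adjusted p = 0.0802).

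Mid-pachytene cells, at 4.86 ± 0.05 (n = 2), had less Cyp26b1 than spermatogonia, at 7.08 ± 1.78 (n = 4), by -2.22 ± 0.77 (adjusted p = 0.0302). Without spermatogonia array 4 the change was -1.34 (adjusted p = 0.0205). It was not called without mid-pachytene array 1 (-2.18) or 2 (-2.26), without a filter or with the arrays of the 2 fractions alone. The change from leptotene/zygotene to mid-pachytene, -1.10 ± 0.82, was not called (adjusted p = 0.325), but it was with the arrays of those fractions alone (adjusted p = 0.0416). Peritubular and stromal markers moved beside Cyp26b1 in some fractions but not in others. All 10 listed markers were on the array, and 4 to 9 of them reached a log2 value of 4 on each wild-type array. Their summed level was 14.06 on spermatogonia array 4 and 10.20 to 11.93 on the other spermatogonia arrays, 9.30 to 10.91 in pre-leptotene, 9.05 to 10.79 in leptotene/zygotene, 10.79 to 11.03 in mid-pachytene and 8.61 in late pachytene cells. It was 10.08 to 10.61 in round spermatids, against 8.44 to 8.53 in diplotene. The mid-pachytene arrays had a summed marker level above that of the round spermatid arrays and a Cyp26b1 value below theirs. The median of the 10 markers was ordered the other way, at 4.81 and 5.22 in mid-pachytene and 5.87 to 6.48 in round spermatids. In mid-pachytene 6 markers reached 4 per array, and in round spermatids 7 to 8 did. The part of stromal cells in the Cyp26b1 values was not tested.

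**Figure D3:**
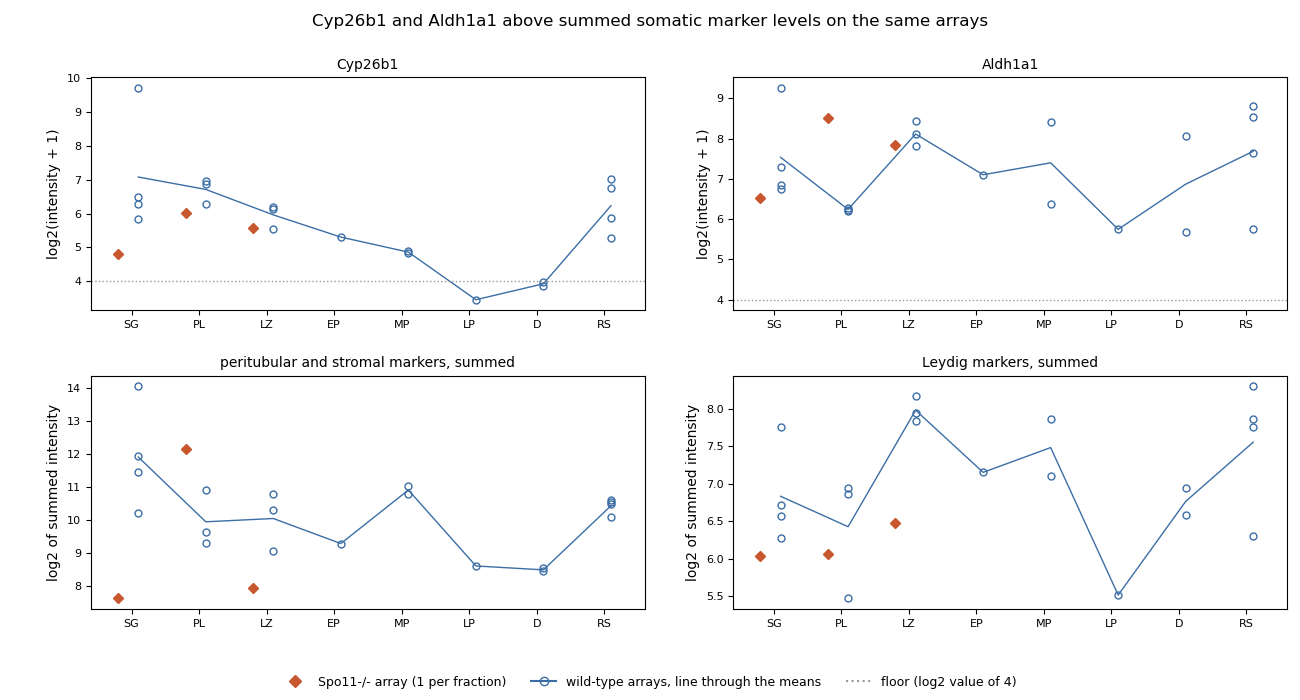
Levels of Cyp26b1 and Aldh1a1 as log2(intensity + 1) on each array (upper panels) and, on the same arrays, the log2 of the summed intensity of peritubular and stromal markers and of Leydig cell markers (lower panels), with Spo11-/- arrays as diamonds and wild-type arrays as circles. Fractions are abbreviated as in the plot of all 8 genes. Spermatogonia array 4 is the highest wild-type array for Cyp26b1 (9.73), Aldh1a1 (9.27) and the stromal sum (14.06), and the Spo11-/- pre-leptotene array has Aldh1a1 at 8.51 with a Leydig sum of 6.06.

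Among the retinoic acid receptors proper, Rarg (chromosome 15, 102234938 to 102257522) was the one with a called change. It read 6.37, 6.33, 7.28 and 7.40 in spermatogonia, 6.76, 6.32 and 7.40 in pre-leptotene, 7.15, 5.98 and 7.48 in leptotene/zygotene cells and 5.82 in early pachytene. It read 6.78 and 5.85 in mid-pachytene, 5.12 in late pachytene, 4.56 and 4.75 in diplotene, and 4.67, 4.83, 4.24 and 4.60 in round spermatids. From spermatogonia to mid-pachytene the arrays lay between 5.82 and 7.48, and all later arrays lay below that range. Diplotene cells, at 4.65 ± 0.13 (n = 2), were lower than mid-pachytene cells, at 6.31 ± 0.66 (n = 2), by -1.66 ± 0.51 (adjusted p = 0.0276). Round spermatids, at 4.58 ± 0.25 (n = 4), were lower than spermatogonia, at 6.84 ± 0.58 (n = 4), by -2.26 ± 0.36 (adjusted p = 2.78e-05). The first of these calls was lost without mid-pachytene array 1 (-1.20, adjusted p = 0.250) or either diplotene array (-1.57 and -1.76, adjusted p = 0.105 and 0.0970) and under quantile normalization (-1.12, adjusted p = 0.137) or array weights (-1.66, adjusted p = 0.0698), and the mean of its probe sets moved it to -0.92. The other was called under every alternative tried.

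Rara (chromosome 11, 98927800 to 98974942) lay near the threshold, reaching 4 on 19 of 23 arrays. It read 4.15, 4.65, 5.73 and 5.64 in spermatogonia, 3.55, 4.66 and 5.65 in pre-leptotene and 4.19, 3.70 and 6.16 in leptotene/zygotene cells, then between 3.55 and 4.23 on the 6 arrays from early pachytene to diplotene. In round spermatids it read 3.73, 4.62, 4.25 and 4.17. Its fraction means differed by at most 1.49, and it was called in none of the 7 comparisons. Leaving out spermatogonia arrays 1 and 2 together put round spermatids lower than spermatogonia by -1.49 ± 0.60 (adjusted p = 0.0367), against -0.85 ± 0.52 with all arrays (adjusted p = 0.146). Rarb (chromosome 14, 16430839 to 17082331) was not measured, with values of 2.60 to 2.78 on all 23 arrays.

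The partner receptor Rxra (chromosome 2, 27676445 to 27763319) fell in steps. It read 8.64, 8.53, 8.49 and 9.16 in spermatogonia, 9.36, 9.15 and 9.33 in pre-leptotene, 9.21, 8.34 and 9.14 in leptotene/zygotene cells and 7.89 in early pachytene. It read 7.98 and 7.24 in mid-pachytene, 5.69 in late pachytene, 5.59 and 3.72 in diplotene, and 5.45, 5.58, 6.18 and 5.57 in round spermatids. The arrays from late pachytene on lay below all earlier ones, and early and mid-pachytene arrays lay between. Mid-pachytene cells, at 7.61 ± 0.52 (n = 2), were lower than leptotene/zygotene cells, at 8.89 ± 0.48 (n = 3), by -1.28 ± 0.45 (adjusted p = 0.0369). Diplotene cells, at 4.66 ± 1.33 (n = 2), were lower than mid-pachytene cells by -2.95 ± 0.49 (adjusted p = 0.000548). Round spermatids, at 5.70 ± 0.33 (n = 4), were lower than spermatogonia, at 8.70 ± 0.31 (n = 4), by -3.01 ± 0.35 (adjusted p = 7.15e-07). The change from spermatogonia to mid-pachytene, -1.09 ± 0.42, was close to the threshold (adjusted p = 0.0477) and was lost under 20 of 32 alternatives, the replicate block among them (-0.95, adjusted p = 0.0517). Between round spermatids and diplotene the change of 1.04 ± 0.42 was not called (adjusted p = 0.0797), and it rested on diplotene array 2. It was 1.98 without diplotene array 1 (adjusted p = 0.00593) and 0.10 without array 2 (adjusted p = 0.927). The step from leptotene/zygotene was not called without leptotene/zygotene array 1 (-1.13, adjusted p = 0.108) or 3 (-1.16, adjusted p = 0.0914) or mid-pachytene array 2 (-0.92). It was also not called without a filter or with the arrays of the 2 fractions alone.

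Other probe sets of Rxra did not share this pattern. A second one read 5.44, 5.33, 4.46 and 2.96 in round spermatids and at most 3.46 on each other array, and the third stayed at or below 2.41 on all arrays. With the mean of the 3 probe sets the change between round spermatids and spermatogonia was -0.55 ± 0.19, below the minimum change. The step from leptotene/zygotene to mid-pachytene was then -0.39 (adjusted p = 0.223), and that from mid-pachytene to diplotene was -1.02 ± 0.26 (adjusted p = 0.0118). Which transcripts each probe set reads was not analysed here. The second probe set of Rarg stayed at or below 3.76 on all arrays, and with the mean of both the change of Rarg between round spermatids and spermatogonia was -1.14. Each of the other measured genes had 1 probe set.

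**Figure D4:**
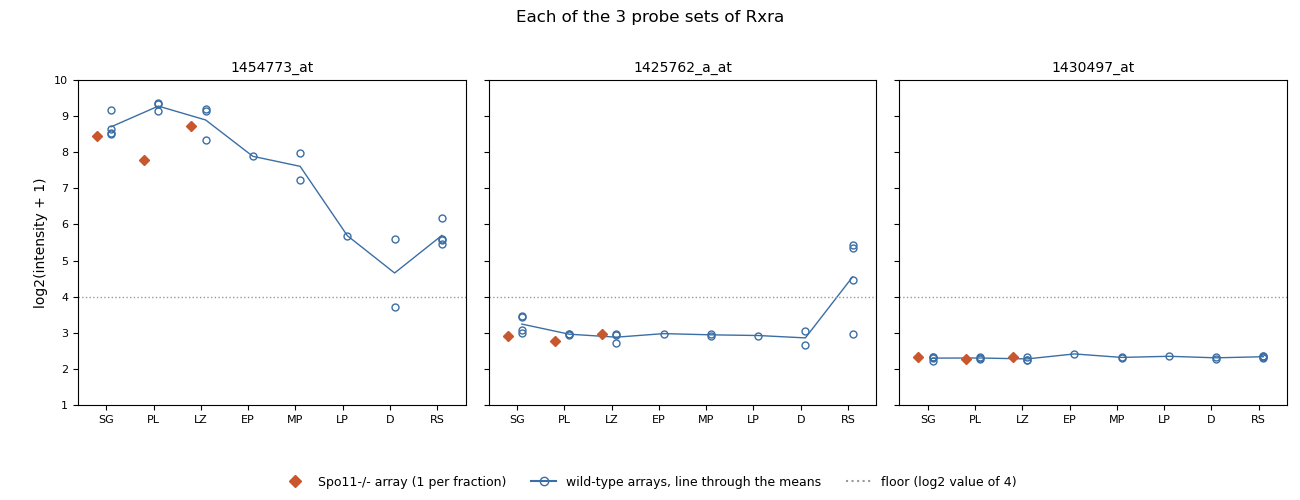
Levels of the 3 probe sets of Rxra, 1 per panel, as log2(intensity + 1) on each array, with Spo11-/- arrays as diamonds, wild-type arrays as circles and a line through the wild-type means. The left panel is the probe set used for Rxra. The middle one reaches 5.44 in round spermatids and at most 3.46 on the other arrays, and the right one stays at or below 2.41.

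Rxrb (chromosome 17, 34031812 to 34038403), the other partner receptor, was lower in late fractions as well. It read 9.73, 10.14, 9.40 and 8.61 in spermatogonia, 9.97, 10.07 and 9.30 in pre-leptotene, 9.48, 8.54 and 8.84 in leptotene/zygotene cells and 9.15 in early pachytene. It read 8.59 and 7.86 in mid-pachytene, 8.33 in late pachytene, 8.06 and 7.18 in diplotene, and 8.01, 8.14, 7.34 and 7.05 in round spermatids. Arrays of adjacent fractions with replicates overlapped, but all round spermatid arrays lay below all spermatogonia arrays. Round spermatids, at 7.63 ± 0.52, were lower than spermatogonia, at 9.47 ± 0.65 (n = 4 each), by -1.84 ± 0.36 (adjusted p = 0.000244), under every alternative tried. Mid-pachytene cells, at 8.22 ± 0.52 (n = 2), were lower than spermatogonia by -1.25 ± 0.45 (adjusted p = 0.0340). That call was lost without spermatogonia array 1 (-1.16, adjusted p = 0.0701), 2 (-1.02, adjusted p = 0.0797) or 3 (-1.27, adjusted p = 0.0513) or mid-pachytene array 2 (-0.88). It was also lost without a filter, with the arrays of the 2 fractions alone and without spermatogonia arrays 1 and 2 together.

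As a description over the 8 wild-type fraction means, Rxra correlated at 0.961 with Rarg, at 0.935 with Crabp1, at 0.898 with Rxrb and at -0.937 with Aldh1a2. These means share arrays. The genes whose fraction means were most like each member, among 7437 genes that spanned at least 2 on the log2 scale, were Iah1, Nme2 and Selenoh for Crabp1 (r of 0.999 each) and C8b, Usp46 and Fam219a for Aldh1a2 (0.999, 0.997 and 0.997). For Rxra they were Nfix, Sipa1l1 and Hs2st1 (0.998, 0.997 and 0.996), for Rarg Myh9, Rsu1 and Gnat2 (0.996, 0.996 and 0.995), and for Rxrb Mrm1, Hint2 and Golt1b (0.993, 0.983 and 0.982). For Cyp26b1 they were Lhx2, Vps50 and Pclaf (0.991, 0.989 and 0.986), and for Aldh1a1 Bhmt, Gstm1 and Akr1cl (0.984, 0.956 and 0.949).

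In Spo11-/- cells, which make no meiotic double-strand breaks, none of the 8 genes passed the test of a shift shared by the 3 fractions. This fit took fraction and genotype as additive terms over 13 arrays, and called 0 of 8 genes (1 at an unadjusted p below 0.05), where 1.63% of 11980 genes were called higher and 10.0% lower. Quantile normalization put 573 genes higher and 881 lower, against 195 and 1203 as deposited. The median change was -0.20 over the 8 genes and -0.05 over all genes. The largest shift was that of Cyp26b1, at -1.14 ± 0.67 (adjusted p = 0.271), and Rxra had the one unadjusted p below 0.05, at -0.62 ± 0.27 (adjusted p = 0.144). Without wild-type spermatogonia array 4 the shift of Cyp26b1 was -0.82 (adjusted p = 0.0470), below the minimum change, and without the Spo11-/- spermatogonia array it was -0.54 (adjusted p = 0.719).

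Set beside the range of the wild-type arrays, 4 of 8 genes lay within it in Spo11-/- spermatogonia, 3 in pre-leptotene and 7 in leptotene/zygotene cells. Of all 11980 genes, 46.2%, 29.7% and 35.9% lay within the range in these fractions, taken in the same order. Crabp1 read 12.68, 12.14 and 13.19 on the Spo11-/- arrays of the 3 fractions, against 12.49 to 12.74, 12.79 to 12.85 and 12.55 to 12.96 on the wild-type arrays. Aldh1a2 read 9.39, 8.77 and 8.98 on the Spo11-/- arrays, against 8.35 to 9.06, 8.03 to 8.82 and 8.86 to 9.78 on the wild-type arrays. Summed spermatid marker levels were 6.36 to 6.44 on the Spo11-/- arrays, against 14.47 to 17.26 on the wild-type arrays of these fractions. Summed late prophase marker levels were 10.32, 9.55 and 10.34 on the Spo11-/- arrays. On the wild-type arrays they were 12.6 to 14.6, 11.4 to 12.9 and 13.9 to 15.1. The part of later cells in the Aldh1a2 values was not tested. Cyp26b1 read 4.82, 6.02 and 5.59 on the Spo11-/- arrays, against 5.84 to 9.73, 6.29 to 6.97 and 5.55 to 6.20 on the wild-type arrays. Spo11-/- spermatogonia had 3 of 10 stromal markers at or above 4 and a summed level of 7.62, against 7 to 9 markers and 10.20 to 14.06 in wild-type spermatogonia. The Spo11-/- pre-leptotene array had 7 markers and a summed level of 12.15, against 4 to 7 markers and 9.30 to 10.91 in wild type. The Spo11-/- leptotene/zygotene array had 5 markers and 7.93, against 5 to 7 markers and 9.05 to 10.79 in wild type. The part of stromal cells in these Cyp26b1 values was not tested.

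In pre-leptotene cells 4 of the 8 genes lay below the wild-type range and 1 above it. The Spo11-/- pre-leptotene array read 7.79 for Rxra, against 9.15 to 9.36 in wild type, and 8.65 for Rxrb, against 9.30 to 10.07. It read 8.51 for Aldh1a1, against 6.21 to 6.29 in wild type. With each fraction tested alone, the lone Spo11-/- array being taken to vary like wild-type arrays, Rxra in pre-leptotene cells was the 1 of the 8 genes called (-1.48 ± 0.40, adjusted p = 0.0497), where 4.17% of all genes were called higher and 3.61% lower in that fraction. The Aldh1a1 difference of 2.27 was not called (adjusted p = 0.122). In spermatogonia and in leptotene/zygotene cells 0 of the 8 were called in limma (0 at an unadjusted p below 0.05 in each), with 0.301% and 0.259% of all genes called higher and 3.61% and 3.22% lower. The same array had a summed T cell marker level of 12.34, against 5.48 to 5.67 in wild type, and a summed leukocyte marker level of 14.42, against 7.27 to 11.40. Its summed Sertoli marker level was 13.31, against 11.10 to 12.44 in wild type. The Spo11-/- leptotene/zygotene array also had a high summed Sertoli level, 13.2 against 12.3 to 12.8 in wild type. Its Aldh1a1 value of 7.84 lay within the wild-type range. The part of these cells in the Rxra and Aldh1a1 values was not tested.

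Other genes of the pathway were read from a list of 47, of which 40 had a probe set of their own and 33 passed the filter. None was called between pre-leptotene and spermatogonia or between leptotene/zygotene and pre-leptotene (2 and 5 at an unadjusted p below 0.05). Between mid-pachytene and leptotene/zygotene 6 rose and 7 fell (14.2% and 15.2% of all genes), between diplotene and mid-pachytene 1 rose and 9 fell (6.98% and 14.5%), and between round spermatids and diplotene 4 rose and 3 fell (12.5% and 12.0%). Against spermatogonia, 6 rose and 7 fell in mid-pachytene (17.5% and 19.2% of all genes) and 10 rose and 13 fell in round spermatids (30.2% and 35.3%). The median change between round spermatids and spermatogonia was -0.31 over the 33 genes.

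Genes of retinol storage and carriage changed in opposite directions. Lrat, which stores retinol as esters, was highest in pachytene. It stayed at or below 2.46 on all spermatogonia, pre-leptotene and leptotene/zygotene arrays, read 4.47 in early pachytene, 5.51 and 6.67 in mid-pachytene and 6.50 in late pachytene, and returned to 3.93 and 4.31 in diplotene and at most 3.03 in round spermatids. The rise in mid-pachytene over leptotene/zygotene was at least 2.09 on the log2 scale (fitted 3.69 ± 0.29, adjusted p = 5.77e-06), and diplotene cells were lower than mid-pachytene cells by -1.97 ± 0.31 (adjusted p = 0.000412). Rbp4, the carrier of retinol in blood, lay at 9.71 ± 0.43 in spermatogonia, and all 4 round spermatid arrays were below 4, so that it fell by at least 5.71 on the log2 scale (fitted -6.73 ± 0.47, adjusted p = 3.15e-09). Dgat1, an acyltransferase that can esterify retinol, was higher in round spermatids (11.03 ± 0.24) than in spermatogonia (9.54 ± 0.26) by 1.49 ± 0.33 (adjusted p = 0.000626), but by 0.11 when all its probe sets were averaged.

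Of 12 retinol and retinal enzymes tested, 7 rose and 3 fell between round spermatids and spermatogonia, where 30.2% of all genes rose and 35.3% fell. Rdh11, a retinal reductase, lay at 12.49 ± 0.42 in round spermatids and 7.80 ± 0.75 in spermatogonia (4.69 ± 0.47, adjusted p = 1.63e-07), and was already higher by 4.48 ± 0.58 in mid-pachytene. The retinol-oxidising alcohol dehydrogenases Adh4 and Adh7 were below 4 on all spermatogonia arrays, and round spermatids were higher by at least 4.06 and 4.12 on the log2 scale. Adh5, the alcohol dehydrogenase of all tissues, went the other way, with 6.18 ± 1.88 in round spermatids and 12.51 ± 0.32 in spermatogonia (-6.33 ± 0.74, adjusted p = 8.64e-07). Bco1, which cleaves carotene to retinal, lay at 7.84 ± 0.37 in round spermatids and 4.58 ± 0.48 in diplotene cells (3.26 ± 0.57, adjusted p = 0.000576). Bco1 was also the 1 of 27 listed genes called between Spo11-/- and wild-type arrays (-1.72 ± 0.52, adjusted p = 0.0423). It read 2.50, 2.61 and 2.68 on the Spo11-/- arrays, all below the threshold of 4. Wild-type arrays read 4.16 to 6.47 in spermatogonia, 3.05 to 4.05 in pre-leptotene and 3.94 to 4.11 in leptotene/zygotene cells. Some wild-type values thus also lay below 4, and the size of the shift is uncertain. That call was lost under 10 of 22 alternatives: without any 1 of the 3 Spo11-/- arrays (-1.15, -2.09 and -1.89, adjusted p = 0.253, 0.0531 and 0.107, in fraction order), without wild-type pre-leptotene array 1 or 2 or any 1 leptotene/zygotene array (-1.75 to -1.67, adjusted p = 0.0585 to 0.0674), without a filter (-1.72, adjusted p = 0.0792) and with log2(value + 16) (-0.81, adjusted p = 0.151). Beside it stand the spermatid marker levels given above, whose part was not tested.

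**Figure D5:**
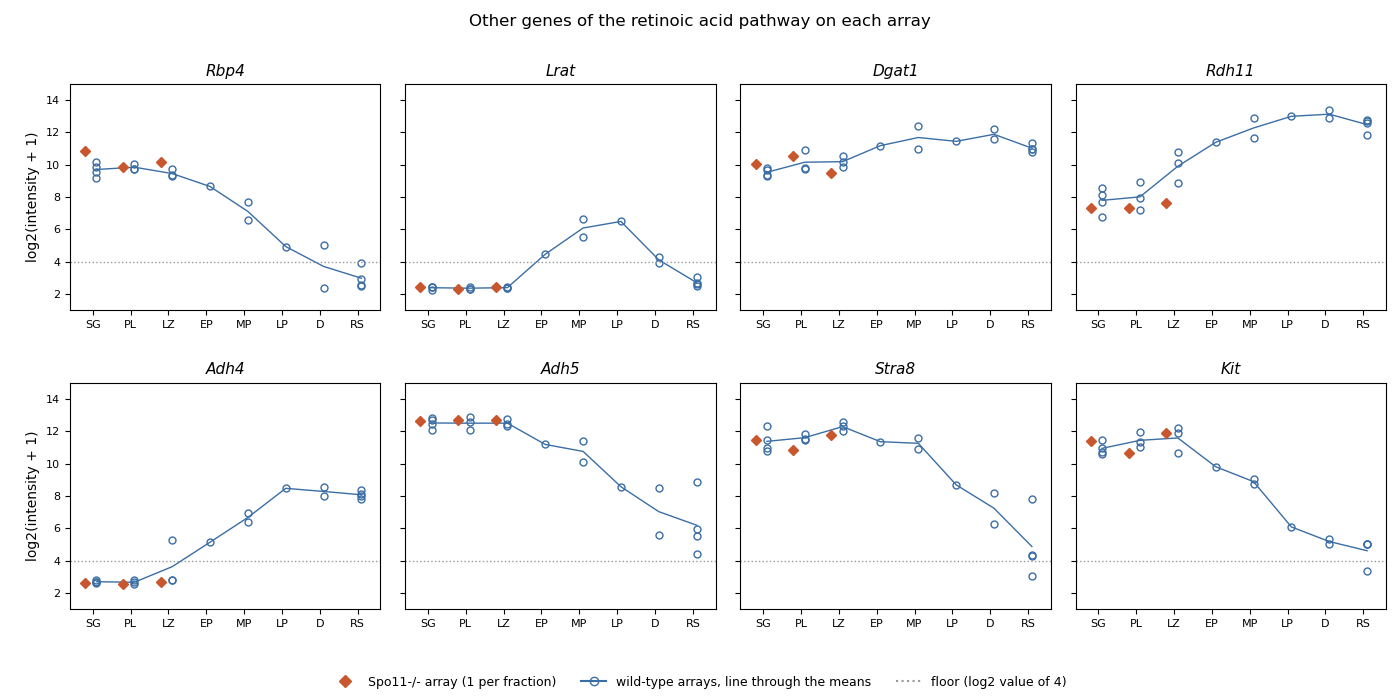
Levels of 8 other genes of the pathway, as log2(intensity + 1), on each array by fraction, with Spo11-/- arrays as diamonds, wild-type arrays as circles and a line through the wild-type means. Lrat lies at 4.47 or above on the early, mid and late pachytene arrays and at 4.31 or below on all others, Adh4 and Rdh11 are high from mid-pachytene on, and Rbp4, Adh5, Stra8 and Kit are low in round spermatids.

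Of 8 receptor partners and cofactors, 1 rose and 4 fell between round spermatids and spermatogonia, set against the same 30.2% and 35.3% of all genes. Ppard, a nuclear receptor that also pairs with the retinoid X receptors, fell by at least 3.06, all round spermatid arrays being below 4. The others that fell were the corepressor Nrip1 (-2.79 ± 0.38) and the coactivators Ncoa2 (-2.20 ± 0.27) and Ncoa3 (-1.98 ± 0.29). By mid-pachytene Nrip1 was already lower than in spermatogonia, at 5.67 ± 0.06 against 8.67 ± 0.19 (-3.00 ± 0.47, adjusted p = 0.000111). With all probe sets of a gene averaged, the changes between round spermatids and spermatogonia were -1.74 for Ppard, -1.49 for Nrip1 and -0.63 for Ncoa2, the last below the minimum change. For Adh5 and Kit they were then -3.07 and -3.97. Of 9 genes known to respond to retinoic acid, 1 rose and 4 fell in this comparison, and the share that fell was near the 35.3% of all genes. Stra8, which is needed to enter meiosis, lay at 4.87 ± 2.04 in round spermatids and 11.37 ± 0.68 in spermatogonia (-6.50 ± 0.73, adjusted p = 5.51e-07). It read 11.45 to 11.83 in pre-leptotene and 12.02 to 12.54 in leptotene/zygotene cells, and neither step was called. Kit, the receptor of stem cell factor, fell by 6.33 ± 0.40 between the same fractions (adjusted p = 1.27e-09) and Sall4, a transcription factor of spermatogonia, by 5.57 ± 0.64 (adjusted p = 6.73e-07). Rec8, a meiotic cohesin subunit, was higher in round spermatids (9.86 ± 0.47) than in diplotene cells (7.03 ± 0.17) by 2.83 ± 0.45 (adjusted p = 0.000298). Of the binding and degradation genes, Fabp5, a carrier of fatty acids and retinoic acid, lay at 5.98 ± 1.91 in round spermatids and 7.74 ± 0.40 in spermatogonia, with overlapping arrays (-1.76 ± 0.72, adjusted p = 0.0372). This call was lost without spermatogonia array 1 (-1.62) or 4 (-1.67) or round spermatid array 2 (-1.35) or 3 (-1.09). It was also lost without a filter, under quantile normalization, with the arrays of the 2 fractions alone and without spermatogonia arrays 1 and 2 together.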

How the data were processed

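The deposited values are intensity per probe set on a linear scale, summarised with GCRMA per the submitters' processing notes, which give no version. They were analysed as log2(value + 1). Of 45037 probe sets 34945 had 1 gene symbol, 932 had several and 9160 had none, and 34741 matched RefSeq (GRCm38.p6) by Entrez identifier. No column of values was left unused (0).

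Changes were fitted with limma 3.58.1 in R 4.3.3, with Benjamini-Hochberg adjustment over all genes tested and a self-test on simulated data. The Spo11-/- fit takes its 3 arrays as independent. Bounds are the mean of the measured group against 4. The rule named all 10 genes, up to 4 called pathway genes per role and comparison, and the 3 most similar genes per member spanning at least 2. The members and lists were chosen with earlier results of these data known.

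Deviations of same-numbered wild-type arrays from their fraction means were correlated to differing extents. Correlations were 0.53, 0.65 and 0.23 between pre-leptotene and spermatogonia, and 0.59, 0.083 and 0.27 between leptotene/zygotene and pre-leptotene. They were 0.40, 0.12, 0.10 and 0.16 between round spermatids and spermatogonia. The other comparisons had 2 pairs. Diplotene against mid-pachytene gave 0.63 for both pairs, which mirror each other. Mid-pachytene gave 0.56 and 0.29 against leptotene/zygotene and 0.32 and 0.26 against spermatogonia. Round spermatids against diplotene gave 0.59 and 0.066. Alternatives covered the filter, pseudocount, probe set, normalization, variance prior, array weights, fold minimum, samples in the fit, replicate number and each array. Replicates are arrays, whose number limits the precision.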

Additional observations from a re-analysis of the deposited data

Results flagged for a closer look

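Cyp26b1 on spermatogonia array 4, at a log2 value of 9.73, lay far from the other 3 spermatogonia arrays (5.84 to 6.49). It was the 1 group flagged of 16 tested, and chance flags about 1 in 20 groups. The same array had the highest summed stromal (14.06) and endothelial (6.97) marker levels of all arrays. Among wild-type arrays it also had the highest summed macrophage and leukocyte level (12.76).

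Aldh1a1 was lower on the Spo11-/- spermatogonia array than on every wild-type one, and higher on the Spo11-/- pre-leptotene array than on every wild-type one. The difference between the 2 differences was 3.28 ± 1.11 in limma (adjusted p = 0.204). Crabp1 was lower on the Spo11-/- pre-leptotene array than on every wild-type one and higher on the Spo11-/- leptotene/zygotene array, and the difference between these was 1.04 ± 0.38 (adjusted p = 0.307). Neither passed the adjustment, and each rests on 1 Spo11-/- array per fraction.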

How the results depend on the processing

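Of 24 changes of the 8 genes that were followed, 17 were called and 7 were not. The called changes kept their call in 478 of 537 alternative values and lost it in 59. The others gained a call in 4 of 210 values, and 1 changed sign, that of Crabp1 between round spermatids and diplotene (0.056 and -1.98 without diplotene array 1 and 2, against -0.96 with all arrays). In 2 comparisons, pre-leptotene against spermatogonia and leptotene/zygotene against pre-leptotene, 0 genes were called under all alternatives, and 6 genes differed between the wild-type fractions under all of them. Leaving out 1 array gave 1 to 3 calls between mid-pachytene and leptotene/zygotene (3 as reported), 0 to 2 between round spermatids and diplotene (1 as reported) and 1 to 5 between mid-pachytene and spermatogonia (5 as reported). With the arrays of the 2 fractions alone, 0 genes were called between diplotene and mid-pachytene (3 as reported) and 3 between mid-pachytene and spermatogonia. Without a filter 0 genes were called between round spermatids and diplotene and 2 between mid-pachytene and spermatogonia, log2(value + 16) gave 0 for the first of these, and leaving out spermatogonia arrays 1 and 2 together gave 2 for the other. With each fraction alone, 1 gene was called in Spo11-/- pre-leptotene cells. The cause was not tested. The replicate block left 0, 0, 3, 3, 1, 4 and 5 calls in the 7 comparisons in stage order and then against spermatogonia, with 625 genes called in all between pre-leptotene and spermatogonia and 630 between leptotene/zygotene and pre-leptotene (223 and 407 as reported). It changed no other call of the 8 genes than that of Rxra. Over all genes, the counts ran from 0 to 830 and from 0 to 748 in those comparisons and from 0 to 3408 between diplotene and mid-pachytene (2812 as reported). Quantile normalization moved the median change of all genes to 0.10 between pre-leptotene and spermatogonia, 0.10 between diplotene and mid-pachytene, -0.05 between round spermatids and spermatogonia and 0.14 in Spo11-/- cells. Of 57 called changes of listed pathway genes, 1784 alternative values held 1698 that kept the call, 86 that lost it and 0 of the other sign.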
